A study of Mus musculus with 2 samples.

Results

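Among the leukocytes of subcutaneous Colon26 tumours, 199 of 7732 kept cells were macrophages with high Arg1 and C1q. They were chosen by their measured reads, scaled to 10000 per cell (CP10k): C1qa or C1qb of at least 1, Lyz2 of at least 5, Arg1 of at least 5, Trac under 1 and Gzma under 10 CP10k. Colon26 is a mouse colon carcinoma line, inoculated here at 200000 cells under the skin of wild-type BALB/c mice. Tumours were taken on day 10 from 14 individual mice, and their CD45+ cells (leukocytes) were hashtagged per mouse. The minP1 mice (n = 4) had 0.08 µg of minP1, an immunostimulatory peptide of the nucleosome-binding protein HMGN1, into the peritoneum on day 9. The PDL1 mice (n = 3) had 200 µg of the anti-PD-L1 antibody 10F.9G2 by the same route on days 4 and 8, the minP1_PDL1 mice (n = 4) had both agents, and the Control mice (n = 3) had neither, with no vehicle or isotype antibody named in the labels. The labels name the cells intestinal, although the tumours grew in the flank.

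Arginase 1, the enzyme encoded by Arg1, splits arginine into ornithine and urea, and macrophages that carry it can take from T cells an amino acid they need to proliferate. C1q starts the classical complement cascade and is made by macrophages of many tissues. Tumour macrophages arise in large part from blood monocytes, which lose Ly6c2 and gain C1q, Apoe and lysosomal genes as they mature, and low oxygen is a known inducer of Arg1 in them.

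Members had reads of all 12 macrophage markers, some in most cells and some in a minority. C1qa and C1qb among them belong to the rule. All values of this paragraph are shares of cells with a read after each cell was thinned to 10000 reads. They cover 187 members, 170 C1q macrophages of the same rule with Arg1 under 5 CP10k (Arg1-low), 339 monocytes and 1396 Trac cells. Monocytes had Chil3 or Vcan of at least 1 CP10k, and C1qa, C1qb, Cxcr2 and Retnlg under 1. Their limits for Lyz2, Trac and Gzma were those of the members. Trac cells had Trac of at least 1 CP10k, Lyz2 under 1 and no read of C1qa. They were thus chosen to lack macrophage reads, so their low shares of macrophage genes follow in part from that choice. C1qc, the third chain of C1q, had a read in 89.8% of members, 82.4% of Arg1-low cells, 2.95% of monocytes and 3.08% of Trac cells. Csf1r, the receptor for the macrophage growth factor CSF1, had one in 82.9% of members and 73.2% of monocytes. Cd68, a lysosomal macrophage protein, had one in 82.4% of members and 75.8% of monocytes, so that both genes mark both classes. Fcgr1, a receptor for antibodies, had one in 70.1% of members and 73.2% of monocytes. The macrophage markers Adgre1, Ms4a7 and Mertk had a read in 46.0%, 27.3% and 11.8% of members, against 32.2%, 5.01% and 1.77% of monocytes. Mmp12, a macrophage elastase, had a read in 29.9% of members, 15.3% of Arg1-low cells, 5.31% of monocytes and 2.51% of Trac cells. Hmox1, which degrades heme, had one in 58.8% of members, 34.7% of Arg1-low cells, 41.6% of monocytes and 7.16% of Trac cells. Mmp12 was thus a marker of a minority of members, and Hmox1 was also read in many monocytes. The monocyte markers Vcan and Chil3 were found in 10.7% and 4.81% of members, and Ly6c2 in 36.9%, against 94.1% of monocytes.

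Members also held reads of other cell types. At full depth, 110 of the 199 members had no read of Cd3e, Cd79a, Ncr1, Col1a1 or Siglech, and the rest had a read of at least 1 of them. The T cell gene Trbc2 had a read in 22.5% of thinned members and Nkg7, of cytotoxic lymphocytes, in 25.1%, against 85.8% and 50.1% of Trac cells, while the neutrophil gene S100a8 had one in 19.3%. The neutrophil gene Ly6g, the B cell factor Ebf1 and the tumour and stromal genes Col3a1, Krt8, Krt18 and Ogn were at 0 in thinned members, where 0 of 187 cells allows a share with a read of up to 1.60%. Summed over each list and mouse, the 8 neutrophil markers held 0.346 to 29.1 CP10k, the 10 T cell markers 0.46 to 14.3, the 8 NK cell markers 0.328 to 6.81 and the 8 monocyte markers 8.98 to 29.8, against 47.5 to 108 for the 12 macrophage markers. The rule set C1qa and C1qb of the macrophage list, Trac of the T cell list and Gzma of the NK cell list. The gaps between these sums thus follow in part from the choice of cells. The 7 markers of conventional type 1 dendritic cells held 2.4 to 13.8 CP10k (median 10.9), above the medians of the neutrophil, T cell and NK cell lists, at 5.47, 3.05 and 3.45. The type 1 dendritic cell median was 10.5 in Arg1-low cells and 10.4 in monocytes, so this level was not particular to members. The neutrophil, T cell and NK cell medians were 4.54, 3.10 and 5.97 in Arg1-low cells and 4.85, 1.31 and 2.43 in monocytes. The 7 markers of conventional type 2 dendritic cells held 0.171 to 7.58 and those of plasmacytoid dendritic cells 0 to 7.51. Of 7 B cell markers 6 had a read in members (0 to 1.47 CP10k), as had 9 of 10 tumour or stromal markers (0 to 0.67) and 4 of 4 erythroid markers (0 to 1.26). The 7 markers of mast cells and basophils reached 5.9 CP10k in minP1 mice and stayed at or under 0.0508 in the other 3 groups. The part of these reads in the results below was not tested, except where members with reads of other lineages were left out.

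The members were the deeper cells, with a median of 96746 reads and 3509 genes per cell, against 70469.5 reads and 3060.5 genes in Arg1-low cells, 49679 and 2361 in monocytes, and 39132.5 and 2078 over all kept cells. Of the members, 12 held fewer than 10000 reads. No barcode was shared between mice. Separate runs are mentioned in the labels, but none is given per mouse, so whether a run went with a treatment cannot be checked. The labels list the cells of all 14 mice as 1 pooled cDNA library.

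Arg1 varied widely among members, from just over the limit to 326 CP10k, with a median of 27.4 and quartiles of 11.99 and 61.9. These values chose the cells and are a description. C1q macrophages formed a continuous range: 96 of the 397 had no Arg1 read, 8 lay between 4 and 5 CP10k and 8 between 5 and 6. The lowest member had 5.12 CP10k and the highest cell under the limit 4.42. Monocytes averaged 12.6 CP10k of Arg1 with a median of 0, so that high Arg1 was not limited to cells with C1q. Of 519 cells that met the C1q, Lyz2 and Arg1 limits, 320 were removed for Trac or Gzma.

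Members made up a few percent of the leukocytes in all 4 groups, and their share did not differ by treatment beyond the spread between mice. In minP1 mice they were 2.13%, 5.53%, 2.62% and 4.52% of kept cells (12, 33, 19 and 29 cells). In PDL1 mice they were 3.31%, 1.5% and 2.58% (16, 7 and 13 cells). With both agents they were 1.97%, 0.19%, 1.85% and 2.19% (11, 1, 9 and 12 cells), and in Control mice 1.24%, 3.09% and 2.20% (6, 20 and 11 cells). The groups overlapped, with the 2 highest shares in minP1 mice and the lowest in a minP1_PDL1 mouse, whose single member gives an exact 95% binomial interval of 0.0048% to 1.05% for counting error alone.

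The means were 3.70% ± 1.60 in minP1 (SD, n = 4), 2.46% ± 0.911 in PDL1 (n = 3), 1.55% ± 0.917 in minP1_PDL1 (n = 4) and 2.18% ± 0.926 in Control mice (n = 3). A permutation test of F over the 4 groups gave p = 0.124. The widest gap was that of minP1_PDL1 below minP1 mice, by 2.15 percentage points (two-sided exact permutation p = 0.0571, adjusted over 5 pairs 0.286), where the smallest p the numbers allow is 0.0286. The change was 1.52 points for minP1 over Control mice (exact permutation p = 0.257), 0.289 for PDL1 (p = 0.7, smallest possible 0.1) and -0.626 for minP1_PDL1 (p = 0.457). Without the first minP1 mouse, the one with the lowest share of its group, the gap between minP1_PDL1 and minP1 mice was -2.67 points (exact permutation p = 0.0286, not adjusted over the 5 pairs) and the test over 4 groups gave 0.0444.

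**Figure D1:**
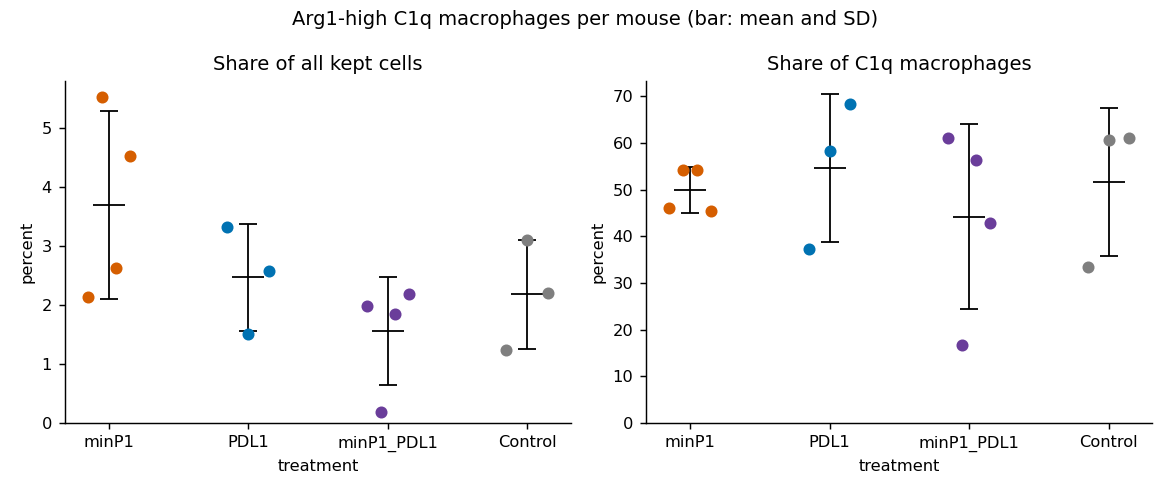
Members as a percentage of the kept cells of each mouse (left) and of its C1q macrophages (right), in 4 minP1, 3 PDL1, 4 minP1_PDL1 and 3 Control mice; points are mice, bars the mean and SD. The groups overlap in both panels, and 1 minP1_PDL1 mouse sits at 0.19% of kept cells.

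Within the C1q macrophages the share of Arg1-high cells did not differ by treatment beyond the spread between mice. Members were 49.96% ± 4.90 of C1q macrophages in minP1 mice (n = 4), 54.7% ± 15.9 in PDL1 (n = 3), 44.2% ± 19.9 in minP1_PDL1 (n = 4) and 51.7% ± 15.9 in Control mice (n = 3), with a permutation p of 0.837. C1q macrophages of both kinds were 7.41% ± 3.10 of kept cells in minP1, 5.08% ± 3.36 in PDL1, 3.19% ± 1.62 in minP1_PDL1 and 4.14% ± 0.836 in Control mice. The minP1 mice with the highest shares of members, 5.53% and 4.52%, were also those with most C1q macrophages, at 10.2% and 9.97% of kept cells.

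Set against Arg1-low C1q macrophages of the same mice, members had more Fn1, and the genes of hypoxia and glycolysis pointed the same way together. Reads were summed per mouse and class in the 7 mice with at least 10 cells of each, and 8973 genes were tested with edgeR with the mouse as a block. The genes of the rule were left out. The other genes were not used by the rule but were read in the same cells. Fn1, which encodes the matrix protein fibronectin, was the only gene that rose (0.0111% of genes called higher), and none fell (0%). At an unadjusted p under 0.05 there were 456 genes, 5.08% of those tested, and the median change over all genes was 0.005 on the log2 scale.

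Fn1 had 1050 to 3360 CPM (summed reads scaled to library size, median 2350) in members and 193 to 1780 (median 544) in Arg1-low cells. It was higher in members in 7 of 7 mice, although the ranges overlapped through 1 minP1 mouse with high levels in both classes. The log2 change was 2.14 (SE 0.235, edgeR adjusted p = 0.00433). With 13 mice of at least 5 cells per class it was 2.17, and with cells thinned to 10000 reads 2.04, both called. The thinned fit applied the rule again to the thinned counts (189 members and 200 Arg1-low cells over all mice), so its cells differ in part. With the mouse left out as a block Fn1 was not called (edgeR adjusted p = 0.31).

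The next genes by p did not pass the test. Ctsl, the lysosomal protease cathepsin L, had 648 to 2790 CPM (median 892) in members and 332 to 974 (median 400) in Arg1-low cells, a log2 difference of 1.29 (SE 0.225, edgeR adjusted p = 0.266), in 7 of 7 mice. S100a6, a calcium-binding protein, had 1670 to 2400 CPM in members and 1000 to 1790 in Arg1-low cells (log2 0.55, edgeR adjusted p = 0.266), also in 7 of 7. The 2 ranges of each gene overlapped, and both genes were called in the fit over 13 mice, with log2 changes of 1.73 and 0.70.

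**Figure D2:**
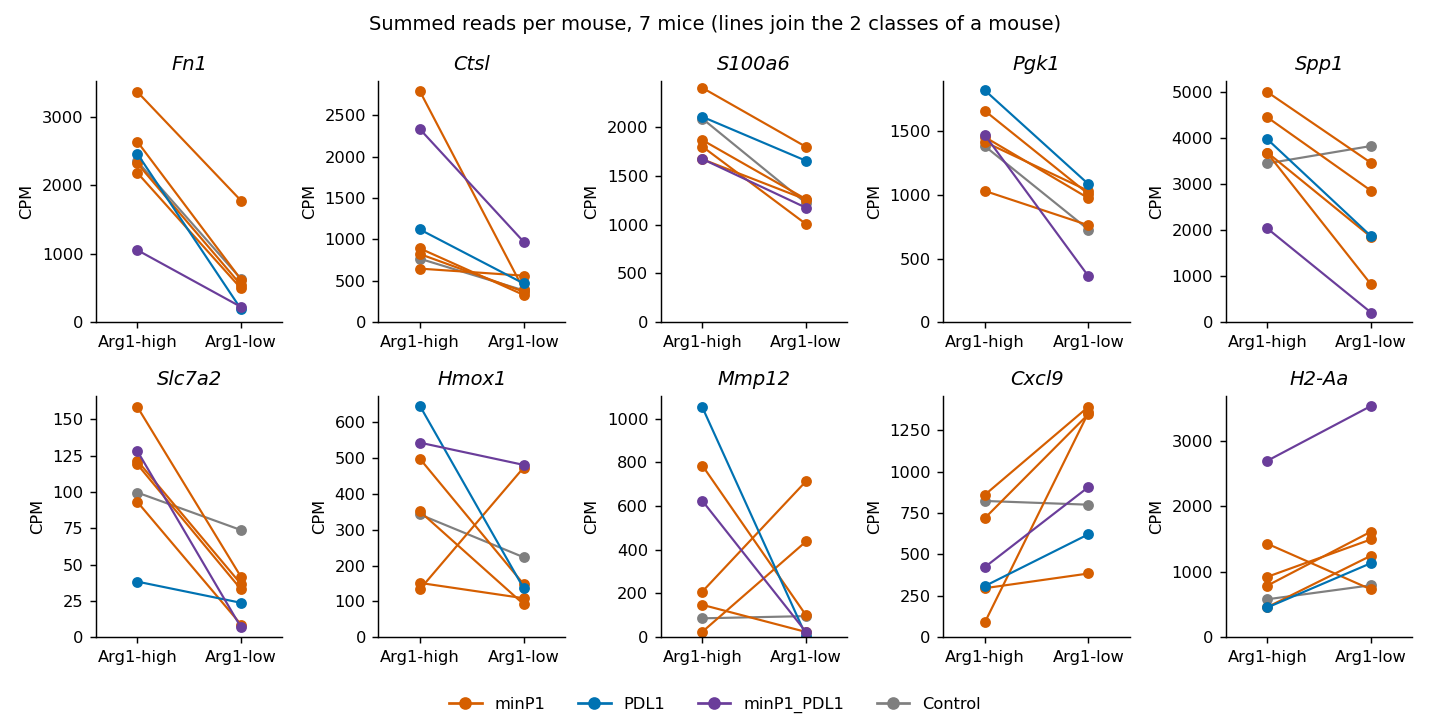
CPM of 10 genes in Arg1-high (left) and Arg1-low (right) macrophages, with a line for each of 7 mice, coloured by treatment. Fn1, Ctsl, S100a6, Pgk1 and Slc7a2 lie higher in Arg1-high cells in 7 of 7 mice, while Mmp12 does so in 4 and Cxcl9 in 1.

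Genes of hypoxia and glycolysis lay above 0 as a list. All 27 tested genes of the list were higher in Arg1-high cells, none passed the test, and their median log2 difference was 0.681, against 0.005 over all genes. The list had been chosen with earlier results of these data known. Pgk1, which encodes the glycolytic phosphoglycerate kinase, had 1030 to 1820 CPM (median 1450) in members and 361 to 1080 (median 972) in Arg1-low cells, with a log2 difference of 0.83 (SE 0.17, edgeR adjusted p = 0.277) in 7 of 7 mice. Ldha, lactate dehydrogenase A, had 808 to 1740 CPM (median 1530) in members and 397 to 1270 (median 947) in Arg1-low cells (log2 0.69, edgeR adjusted p = 0.403). Pgam1, phosphoglycerate mutase, had 948 to 1410 CPM in members and 391 to 1010 in Arg1-low cells (log2 0.62, edgeR adjusted p = 0.515). Ldha and Pgam1 were higher in 7 of 7 mice as well, and the 2 ranges of each gene overlapped.

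The rest of the list spread widely in size. The hypoxia-induced genes Egln3, an oxygen-sensing prolyl hydroxylase, Hilpda, of lipid droplets, and Bnip3, of mitochondrial clearance, had log2 differences of 3.92 (SE 0.99), 1.30 (SE 0.30) and 1.03 (SE 0.27). Vegfa, the hypoxia-induced angiogenic factor, differed by 0.17 (SE 0.27), and Slc2a1, the glucose transporter GLUT1, by 0.43 (SE 0.23). By mouse, 16, 26, 22 and 20 of 27 genes were higher in members in the 4 minP1 mice, 24 in the PDL1 mouse, 25 in the minP1_PDL1 mouse and 25 in the Control mouse. In the fit over 7 mice 50.4% of all genes were higher, and that share was not taken by mouse. The number called turned on the setting: 11 with DESeq2, 6 of 22 tested after thinning to 10000 reads and 9 of 26 in the fit over 13 mice, with every tested gene of the list higher in each of these. Over all genes, 59, 13 and 24 were called higher in the same 3 settings. Leaving out 1 mouse at a time kept 25 to 28 of 27 or 28 tested genes higher, with none called.

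The promoters of these genes are shown because all 27 tested genes of the list lay on the same side. A run of ACGTG, the core of the motif bound by hypoxia-inducible factors, or its reverse complement CACGT, was searched on both strands from 250 bases before to 50 after each start of transcription, in RefSeq promoters on GRCm38.p6. Of 29 genes of the list 26 were matched, and 20 of the 26 (76.9%) held it, in 21 of 36 promoters (58.3%). Over all RefSeq genes searched, 21.8% held it (5886 of 27025), and over all promoters 19.6%. Below, its letters are in capitals in 3 promoters, at chrX:106186850-106187149, chr7:46845554-46845853 and chr19:41911621-41911920, all on the plus strand. The Pgk1 promoter held 2 matches, the Ldha promoter (1 of 2 of that gene) 5 in 3 stretches, where CACGTG reads as a match on both strands, and the Pgam1 promoter 1.
Pgk1: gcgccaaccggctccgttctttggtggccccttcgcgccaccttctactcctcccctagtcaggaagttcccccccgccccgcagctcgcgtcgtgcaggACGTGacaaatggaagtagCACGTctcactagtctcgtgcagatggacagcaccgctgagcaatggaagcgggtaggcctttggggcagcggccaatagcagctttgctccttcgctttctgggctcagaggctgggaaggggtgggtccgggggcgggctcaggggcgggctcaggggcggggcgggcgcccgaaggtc
Ldha: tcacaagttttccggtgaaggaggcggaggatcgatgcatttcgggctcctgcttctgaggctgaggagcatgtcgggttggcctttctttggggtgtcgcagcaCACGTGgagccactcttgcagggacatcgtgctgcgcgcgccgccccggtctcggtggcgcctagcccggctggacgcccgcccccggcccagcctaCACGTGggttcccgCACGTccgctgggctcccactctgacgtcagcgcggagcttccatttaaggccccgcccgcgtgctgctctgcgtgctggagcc
Pgam1: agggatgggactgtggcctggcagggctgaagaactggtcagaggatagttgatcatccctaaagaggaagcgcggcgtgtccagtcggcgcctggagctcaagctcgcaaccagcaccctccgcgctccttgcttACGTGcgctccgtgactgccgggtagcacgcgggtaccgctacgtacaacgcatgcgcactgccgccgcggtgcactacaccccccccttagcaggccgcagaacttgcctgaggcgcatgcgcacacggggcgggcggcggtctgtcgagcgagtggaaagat

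A match is a description of the letters and not a bound site. The list was chosen by gene function, so its share is a trait of the list and not a result on these cells. Among all genes named for the comparison with Arg1-low cells, which include genes of the list, 19 of 63 matched genes (30.2%) held the run.

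**Figure D3:**
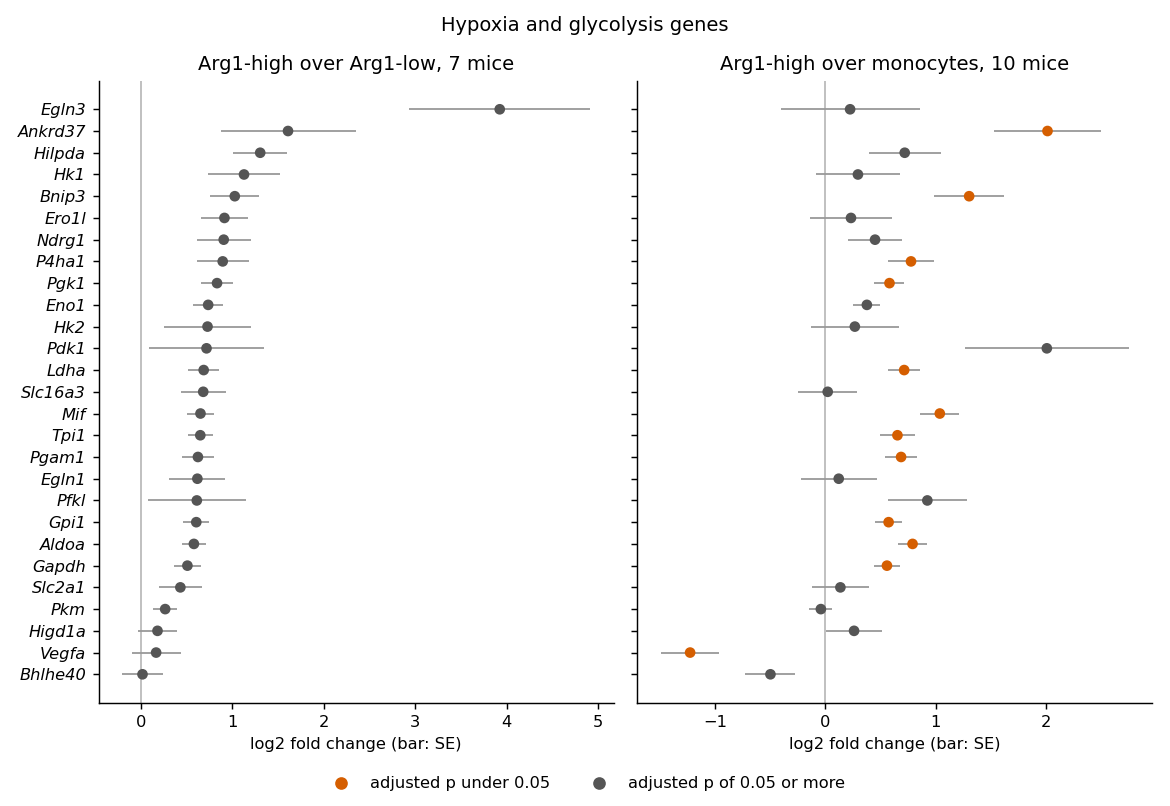
Log2 fold changes (points) and standard errors (bars) of 27 hypoxia and glycolysis genes in Arg1-high over Arg1-low macrophages (left, 7 mice) and over monocytes (right, 10 mice), with an adjusted p under 0.05 in orange. All 27 points on the left are above 0 and none is orange, and on the right 11 are called higher and Vegfa is called lower.

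Beyond Arg1, no gene of arginine handling passed the test. Slc7a2, a transporter of arginine and other cationic amino acids, had 38.3 to 159 CPM (median 119) in members and 6.82 to 73.8 (median 33.0) in Arg1-low cells. It was higher in 7 of 7 mice, with a log2 difference of 1.97 (SE 0.448, edgeR adjusted p = 0.342), and it was called in the fit over 13 mice at 2.79. The 12 tested genes of arginine metabolism had a median difference of -0.009. Odc1, which makes polyamines from ornithine, differed by -0.81 (SE 0.37), Arg2, the mitochondrial arginase, by 0.12 (SE 0.41), and Nos2, which makes nitric oxide from arginine, by 1.06 (SE 1.60). Nos2 had a read in 11.8% of thinned members.

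Matrix genes followed Fn1 in part. Of 18 tested, 13 were higher in members, 1 of them called, with a median of 0.832. Spp1, the secreted phosphoprotein osteopontin, had 2040 to 5000 CPM (median 3690) in members and 214 to 3830 (median 1870) in Arg1-low cells, higher in 6 of 7 mice (log2 1.18, SE 0.311, edgeR adjusted p = 0.461). Adam8, a surface protease, differed by 1.03 (SE 0.20) and Plaur, the urokinase receptor, by 0.89 (SE 0.18), both at an edgeR adjusted p of 0.277. Mmp12 had 24.9 to 1050 CPM in members and 7.32 to 713 in Arg1-low cells, higher in 4 of 7 mice (log2 1.71, SE 1.22). Its per-mouse levels spread over the whole range in both classes, so that a difference was not detectable over these mice. Thbs1, the matrix protein thrombospondin 1, differed by -1.76 (SE 0.46).

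Most phagocytic and lysosomal genes were higher in members, without a call. Complement and phagocytic receptors were higher for 14 of 18 tested genes (median 0.342), with C3ar1, the receptor of complement fragment C3a, at 0.69 and Mrc1, the mannose receptor, at 0.72 (edgeR adjusted p = 0.405). Lysosomal genes were higher for 17 of 19 (median 0.171). Of 15 lipid handling genes 9 were higher and 6 lower (median 0.224), against 50.4% higher over all genes. Among those of smallest p, Trem2, a lipid receptor of macrophages, had 134 to 274 CPM in members and 88.3 to 189 in Arg1-low cells, and the tetraspanin Cd9 had 279 to 530 CPM in members and 155 to 293 in Arg1-low cells, both higher in 7 of 7 mice. C1qc differed by 0.07 (SE 0.11), in 2 classes that were both chosen for C1q.

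Interferon and antigen presentation genes leaned the other way, also without a call. Of 26 tested genes of the type I interferon response, 23 were lower in members, with a median of -0.533, and by mouse the number lower was 14, 24, 16 and 10 in the minP1 mice, 21 in the PDL1 mouse, 16 in the minP1_PDL1 mouse and 19 in the Control mouse. The share of all genes that were lower was not taken by mouse. Ifit2, an antiviral RNA-binding protein, had 1.99 to 18 CPM in members and 0 to 103 in Arg1-low cells. Of 10 tested MHC class II presentation genes, 8 were lower (median -0.337), a lean that not all mice shared. By mouse the number lower was 2, 9, 8 and 5 in the minP1 mice. It was 8 in the PDL1 mouse, 6 in the minP1_PDL1 mouse and 8 in the Control mouse. H2-Ab1, a chain of MHC class II, had 780 to 4960 CPM (median 1370) in members and 1060 to 5210 (median 2270) in Arg1-low cells, lower in 6 of 7 mice (log2 -0.47, edgeR adjusted p = 0.954). Cxcl9, the interferon gamma-induced chemokine for T cells, had 89.8 to 860 CPM (median 423) in members and 385 to 1390 (median 907) in Arg1-low cells, lower in 6 of 7 mice (log2 -1.05, edgeR adjusted p = 0.746). After thinning to 10000 reads, 8 genes were called lower in members, among them H2-Aa at -1.12, H2-Ab1 at -0.81, Il1b at -0.99 and the monocyte genes Ly6c2 at -1.34 and Plac8 at -1.31. In that fit the cells were chosen anew from the thinned counts, so a part of depth and a part of the choice of cells cannot be told apart.

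Hmox1, Cd274 and Tlr4 did not pass either. Hmox1 had 134 to 646 CPM (median 351) in members and 92.5 to 481 (median 148) in Arg1-low cells, higher in 6 of 7 mice (log2 0.82, SE 0.40, edgeR adjusted p = 0.983). The 16 tested genes of heme, iron and NRF2, Hmox1 included, had a median of -0.007. Cd274, which encodes PD-L1, the target of the antibody, had 46.9 to 604 CPM in members and 101 to 360 in Arg1-low cells (log2 0.23), and Tlr4, the lipopolysaccharide receptor, 85.7 to 133 CPM in members and 52.0 to 96.5 in Arg1-low cells (log2 0.70).

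**Figure D4:**
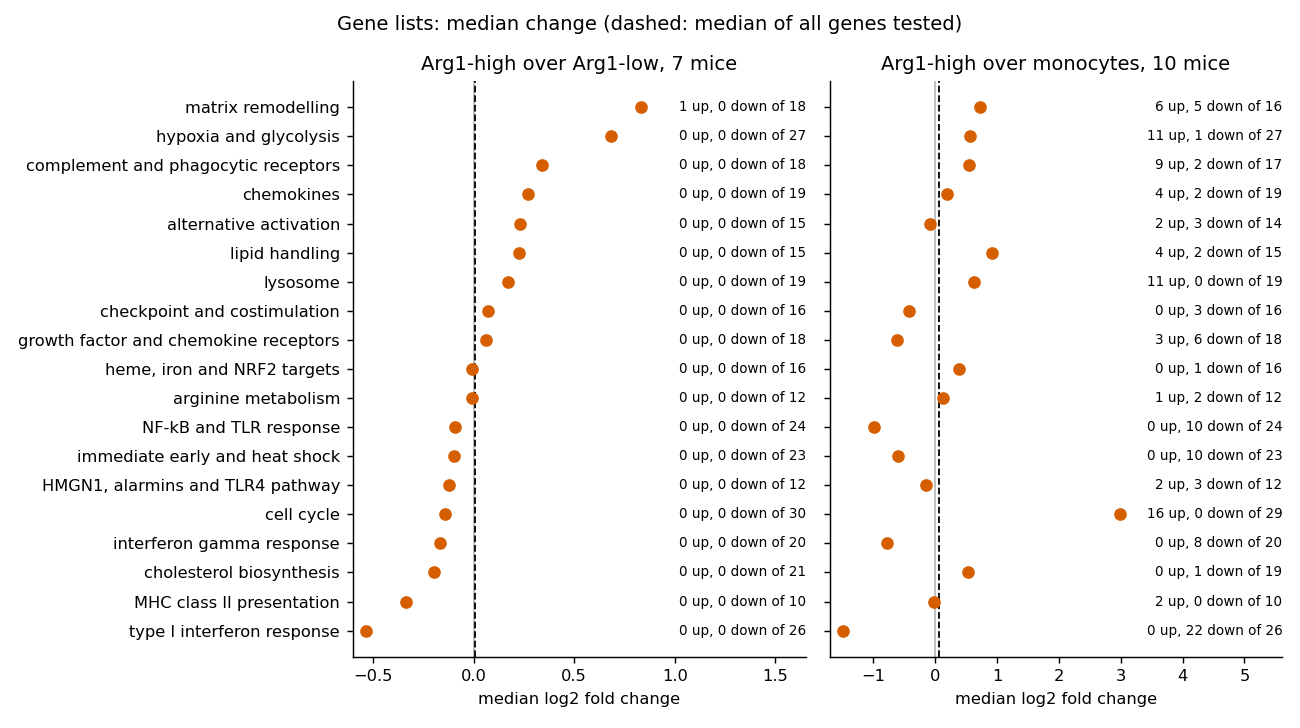
Median log2 fold change of 19 gene lists in Arg1-high over Arg1-low macrophages (left, 7 mice) and over monocytes (right, 10 mice), with the genes called higher and lower of those tested and the median of all genes as a dashed line. On the left the hypoxia and glycolysis list lies at 0.681 and the type I interferon list at -0.533 with no gene called in either, and on the right 22 interferon genes are called lower and 16 cell cycle genes higher.

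Set against monocytes of the same mice, members had more of lysosomal, phagocytic and cell cycle genes and less of interferon and inflammatory genes. The genes of both rules were left out. Over 10 mice and 8248 genes, 341 were higher (4.13%) and 453 lower (5.49%) in members (edgeR adjusted p under 0.05). Members were the deeper cells, with a median of 96746 reads against 49679 in monocytes, and this comparison was not repeated with thinned cells.

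Among the 12 genes higher in members with the smallest adjusted p were secreted, lysosomal and receptor genes. Lgmn, a lysosomal asparagine protease, had 1100 to 2170 CPM (median 1430) in members and 262 to 790 (median 420) in monocytes (log2 1.78, edgeR adjusted p = 3.19e-07). Cxcl16, a membrane-bound chemokine, had 403 to 944 CPM in members and 60.3 to 180 in monocytes (log2 2.15), and Gatm, which makes the creatine precursor from arginine and glycine, 1080 to 3320 CPM in members and 195 to 605 in monocytes (log2 2.4). The ranges of these 3 genes did not overlap. Cx3cr1, the fractalkine receptor, was higher by 3.44 and Col14a1, a collagen, by 7.5, the last with a median of 0 CPM in monocytes. Cx3cr1 was not called without members that had reads of other lineages. C1qc, at a log2 change of 8.05, stands close to the rule and is no independent result.

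Lysosomal and phagocytic genes were also called. Of 19 lysosomal genes 11 rose and none fell, Cd63 by 3.12 and Grn by 1.03 among them. Of 17 complement and phagocytic receptors 9 rose, with Stab1, a scavenger receptor, at 3.64 and Mertk, a receptor for dying cells, at 3.77, and C3 (-2.07) and Fcgr1 (-0.52) fell. Trem2 had 132 to 271 CPM in members and 1.08 to 82.7 in monocytes, ranges that did not overlap, and rose by 2.76.

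Spp1 had 997 to 4920 CPM (median 3530) in members and 375 to 1900 (median 667) in monocytes, and rose by 2.02 (edgeR adjusted p = 3.29e-04), higher in 9 of 10 mice. Mmp12 had 24.5 to 1040 CPM (median 328) in members and 0.538 to 2660 (median 38.0) in monocytes, and rose by 3.32 (edgeR adjusted p = 0.0136) in 9 of 10 mice. In 1 minP1_PDL1 mouse monocytes held more Mmp12 than members of any mouse, and without the mouse as a block Mmp12 was not called. Hmox1 had 133 to 2470 CPM (median 523) in members and 45.8 to 3150 (median 186) in monocytes and did not pass the test (log2 0.99, edgeR adjusted p = 0.111). Fn1 rose by 0.75 (edgeR adjusted p = 0.00765).

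Over monocytes part of the hypoxia and glycolysis list was called. Of 27 tested, 11 rose and 1 fell, with a median of 0.559 against 0.058 over all genes. Mif, a cytokine of macrophages, rose by 1.04, Aldoa, the glycolytic aldolase, by 0.79, Ldha by 0.71 and Bnip3 by 1.30, while Vegfa fell by 1.23, with 44.8 to 218 CPM in members and 183 to 518 in monocytes, a call lost without members that had reads of other lineages. Slc7a2 rose by 2.31 (edgeR adjusted p = 0.0113), while Arg2 and Azin1, an activator of the polyamine enzyme Odc1, fell by 1.79 and 0.96.

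Cell cycle genes rose over monocytes, while none was called over Arg1-low cells. Of 29 tested 16 rose over monocytes and none fell, Cdk1 by 6.41, Ccnb2 by 4.55 and Mki67 by 3.08. Over Arg1-low cells the list's median was -0.141, with 20 of 30 genes lower and none called. A read of Mki67, Top2a, Cdk1 or Ccnb1 was found in 32.6% of thinned members, 38.2% of Arg1-low cells and 7.96% of monocytes. With members of at least 10 CP10k of Arg1, in 8 mice, 189 genes were called higher over monocytes, 2 of them from the cell cycle list. With members that had no read of Cd3e, Cd79a, Ncr1, Col1a1 or Siglech, in 4 mice, 58 genes were called higher and 70 lower, none of them from that list. Leaving out 1 mouse at a time gave 10 to 18 called cell cycle genes, the fewest without minP1 replicate 4.

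Monocyte and interferon genes fell. Ly6c2, a surface marker of inflammatory monocytes, had 83.7 to 629 CPM (median 257) in members and 1790 to 3450 (median 2880) in monocytes (log2 -3.32), and Plac8 163 to 914 CPM in members and 3640 to 7310 in monocytes (log2 -3.26). Of 26 type I interferon genes 22 fell and none rose, with a median of -1.487, Rsad2 by 4.09, Isg15 by 1.89 and Irf7 by 1.68 among them. Rsad2, an antiviral enzyme, had 0 to 81.3 CPM in members and 137 to 1160 in monocytes. Of 20 interferon gamma response genes 8 fell, and of 24 NF-kB and TLR genes 10, with Il1b, the inflammatory cytokine, at 640 to 2590 CPM (median 1210) in members and 2840 to 4570 (median 3580) in monocytes (log2 -1.43, edgeR adjusted p = 2.70e-04). Of 23 immediate early and heat shock genes 10 fell.

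Genes of the alarmin and TLR4 pathway changed in both directions. Of 12 tested genes of HMGN1, the alarmins and the TLR4 pathway, Cd14, the co-receptor of TLR4, fell by 0.69, the adaptor Myd88 fell by 1.204 and Tlr2 fell by 1.03, while Hmgn1 rose by 1.75 and Hmgb1, another chromatin alarmin, by 0.58. Tlr4 had 19.6 to 135 CPM in members and 20.4 to 177 in monocytes and did not pass the test (log2 -0.08). Of the growth factor and chemokine receptors Csf1r rose by 0.55 and Tgfbr2, a receptor of TGF-beta, by 1.30, and Ccr2, which draws monocytes out of the blood, fell by 0.90. The 3 GM-CSF receptor genes Csf2ra, Csf2rb and Csf2rb2 fell too, with log2 changes of -0.95, -1.398 and -1.10.

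Among the members themselves, the 10 genes most correlated with Arg1 included the glycolytic genes Pgk1, Aldoa, Pgam1 and Ldha, and Fn1. The Spearman correlation with Arg1 over the cells of a mouse was taken in the 10 mice with at least 10 members and given as the median of mice, for 4668 genes, as a description. The cells of a mouse share their library, and Arg1 had a median correlation of 0.061 with depth. Over all genes the median was -0.023, with 95% of genes between -0.231 and 0.222. Ndrg1, a hypoxia-induced gene, stood highest at 0.554 (0.127 to 0.743 over mice), then Lgals3, the lectin galectin 3, at 0.516, Pgk1 at 0.494 and Anxa2, a membrane-binding annexin, at 0.476. Aldoa, Pgam1, Hmox1, Ldha and Fn1 followed at 0.452, 0.441, 0.433, 0.431 and 0.424. Pgk1, Pgam1 and Ldha were negative in 1 of 10 mice, and Ndrg1, Lgals3, Anxa2, Aldoa, Hmox1 and Fn1 were positive in 10 of 10.

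The lowest were Slc25a3, a mitochondrial phosphate carrier, at -0.432, Wdr31 at -0.424, H2afz, a histone variant, at -0.418, Tacc2 at -0.395 and Nedd9, a scaffold of adhesion, at -0.341. H2afz and Tacc2 were negative in 10 of 10 mice. Mmp12 and Hmox1 were read together in part of the members: Mmp12 had a read in 41 of 110 thinned members with Hmox1 (37.3%) and in 15 of 77 without (19.5%). In Arg1-low cells the shares were 16.9% of 59 and 14.4% of 111. The part of depth and treatment in these shares was not tested.

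**Figure D5:**
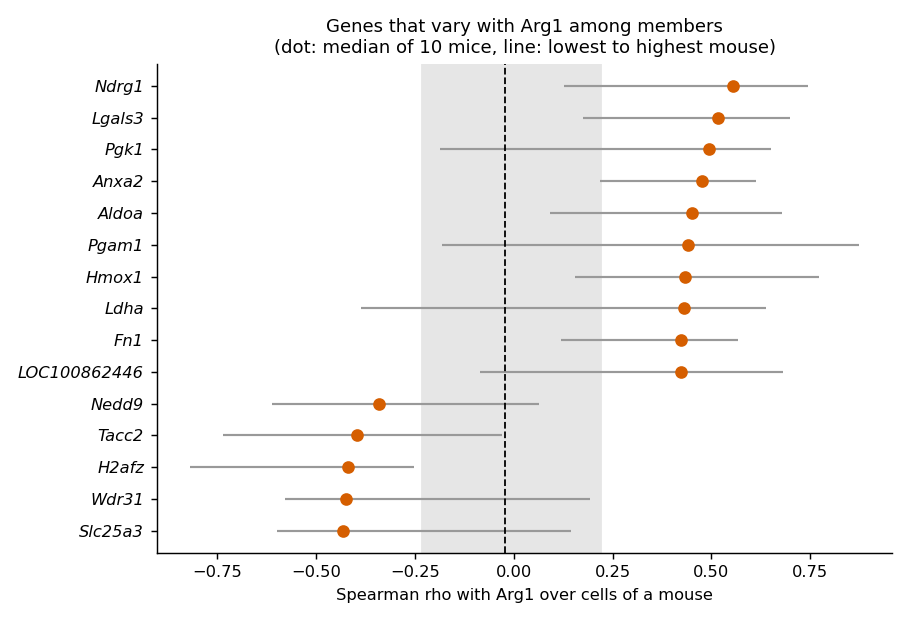
Spearman correlation with Arg1 over the members of a mouse, for the 10 highest and 5 lowest genes; dots are the median of 10 mice, lines the lowest to highest mouse, the dashed line the median of 4668 genes and the grey band their central 95%. Ndrg1 lies highest at 0.554 and Slc25a3 lowest at -0.432.

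No gene was called between treatments within the members. Reads were summed over members in the 10 mice with at least 10 of them (4 minP1, 2 PDL1, 2 minP1_PDL1 and 2 Control mice), and 10664 genes were tested. Called genes were 0% for minP1, PDL1 and minP1_PDL1 over Control, for minP1_PDL1 over minP1 and over PDL1, and for the interaction of the agents (edgeR adjusted p). At an unadjusted p under 0.05 there were 398 genes for minP1 over Control (3.73%), 591 for PDL1 (5.54%), 696 for minP1_PDL1 (6.53%), 594 and 656 for minP1_PDL1 over minP1 and over PDL1, and 660 for the interaction. DESeq2 called 8, 11, 35, 29, 36 and 4 genes in the same order. The first 3 of these comparisons share the Control mice, and a single cell held up to 29.7% of the reads of a mouse.

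The levels of the genes below are therefore values and not changes. Hmox1 had 147, 348, 489 and 133 CPM in minP1 mice, 629 and 981 in PDL1 mice, 2400 and 537 in minP1_PDL1 mice, and 338 and 1267 in Control mice. The group means of Hmox1 thus rested on mice that differed severalfold from one another. Mmp12 had 24.2, 147, 770 and 208 CPM in minP1 mice, 1024 and 643 in PDL1 mice, 425 and 617 in minP1_PDL1 mice, and 85.2 and 207 in Control mice, so that the PDL1 and minP1_PDL1 mice lay above the Control mice and the minP1 mice spread around them. The log2 differences from Control were 2.52 (SE 0.97) for PDL1 and 1.84 (SE 0.95) for minP1_PDL1, with edgeR adjusted p of 0.84 and 0.744.

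Arg1, a gene of the rule, had 4699, 3964, 4663 and 4231 CPM in minP1, 3759.8 and 3487 in PDL1, 7285 and 5657 in minP1_PDL1, and 3444 and 5166 in Control mice. Spp1 had 4852, 3645, 3619.5 and 4431 CPM in minP1 mice, 3876 and 971 in PDL1, 3005 and 2019 in minP1_PDL1, and 3403 and 2728 in Control mice. The 4 minP1 mice were above the others for Spp1 with the exception of 1 PDL1 mouse. Cd274 had 45.5 to 253 CPM in minP1 mice, 138 and 361 in PDL1, 245 and 597 in minP1_PDL1, and 212 and 171 in Control mice.

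The genes of smallest p are given as values, since none was called. Tnf, the inflammatory cytokine, had 10.3 and 7.26 CPM in PDL1 mice, 81.2 and 141 in minP1_PDL1 mice, and 88.1 and 70.7 in Control mice, with 56.4 to 134 in the 4 minP1 mice. The 2 PDL1 mice lay below all others for Tnf (log2 -3.16 to Control, SE 0.63, edgeR adjusted p = 0.84). Fth1, the heavy chain of the iron store ferritin, had 13336 and 19312 CPM in minP1_PDL1 mice and 5131 to 8441 in minP1 mice, a log2 difference of 1.17 (SE 0.202, edgeR adjusted p = 0.238). Copb1, of the vesicle coat, had 138 to 162 CPM in 4 minP1 mice and 40.2 and 47.2 in Control mice (log2 1.79, edgeR adjusted p = 1.0). Nop16 and Rrs1, of ribosome assembly, had 0.78 and 0, and 0 and 0.86 CPM in minP1_PDL1 mice, against 79.9 and 48.1, and 66.1 and 56.0 in Control mice. Cpa3, a mast cell protease, had 217, 1.93, 553 and 225 CPM in minP1 mice and 2.39 and 0.98 in Control mice. It is itself among the mast cell and basophil markers summed above, so that sum is no independent result.

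Treatment lists showed no calls either. The type I interferon list had medians of 0.203 for minP1, 0.588 for PDL1 and 0.44 for minP1_PDL1 over Control, against 0.084, 0 and 0 over all genes, with 18, 20 and 21 of 26 genes higher. The hypoxia and glycolysis list had medians of 0.008, 0.115 and -0.108, with 16, 19 and 13 of 29 genes higher.

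Whether a treatment acted differently on members and on Arg1-low cells could be fitted in 7 mice, with 1 mouse each in PDL1, minP1_PDL1 and Control. The lone mice were taken to vary like the minP1 mice. The edgeR test called 0% of 8973 genes for minP1, PDL1 and minP1_PDL1 against Control, and at an unadjusted p under 0.05 there were 362, 437 and 740. With a single mouse in 3 of the 4 arms, these 0 calls say nothing about a difference in treatment effect. The fit over 13 mice with at least 5 cells of each class, which has replicates in each arm, also called 0 genes in the 3 comparisons.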

How the data were processed

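CD45+ cells of 14 mice were measured by BD Rhapsody whole-transcriptome sequencing of 1 pooled, hashtagged cDNA library. Per the submitters' processing notes the authors used cutadapt 2.10, Bowtie2 2.3.4.1 with mm10 and Seurat 2.3.4. The deposited table holds whole-number counts of 22836 genes in 8262 barcodes, assigned to mice by hashtag by the authors. A median of 10 reads per nonzero entry shows counts not collapsed by molecule. The binomial intervals on shares of cells cover counting error only and not the spread between mice. The authors' 141 doublet and 6 unassigned columns (147) were not used, no doublet caller was run, and doublets within a mouse are not marked by hashtags. Cells with over 25% of reads in mitochondrial genes (383 of 8115) were removed.

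The members, gene lists and tests were chosen with earlier results of these data known. Shares were compared over mice by permutation (100000 for F, exact for pairs). Reads were summed per mouse and class of at least 10 cells and tested with edgeR 4.0.16 quasi-likelihood fits (TMM, filterByExpr, two-sided, Benjamini-Hochberg adjustment, threshold 0.05) in R 4.3.3, checked on simulated data, with DESeq2 1.42.0 as an alternative. CPM are per TMM-scaled library. CPM and CP10k are not corrected for gene length and compare a gene between cells, not genes with one another. Replicates are mice. The labels state no pairing of same-numbered mice across groups, so the treatment fit had no block. Correlations of same-numbered deviations from the group means ran from -0.013 to 0.015. In the groups of 2 mice these deviations mirror each other, so the correlations cannot exclude a pairing.

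Named were 13 fixed genes, up to 12 called genes in each direction by adjusted p (the 3 of smallest p where fewer than 3 were called), up to 4 members per list by p, and the 10 highest and 5 lowest correlations with Arg1. Other genes named from lists were chosen after their values were seen. As alternatives the tests were repeated with DESeq2, with RLE size factors, without the filter and with other limits of Arg1 and mitochondrial reads, over kept cells with Ptprc, after thinning to 10000 reads, for members without reads of other lineages, with the block changed, and with each mouse left out. For the repeats with thinned cells the rule was applied again to the thinned counts. The shares of thinned cells with a read kept the cells chosen at full depth. A minimum of 5 cells was added after the data had been seen.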

Additional observations from a re-analysis of the deposited data

Results flagged for a closer look

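Of 17 sets of values of 4 mice examined, 1 held a mouse far from the others, and chance alone flags about 1 set in 20. They were shares in minP1 and minP1_PDL1 mice and levels of the fixed genes in minP1 mice. The PDL1 and Control groups were too small to be examined. The minP1_PDL1 replicate 2 had 1 member among 527 kept cells, a share of 0.19%, against 1.97%, 1.85% and 2.19% in the other minP1_PDL1 mice. The mouse held 6 C1q macrophages in all and 20 monocytes.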

How the results depend on the processing

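No called value of a gene named in the text changed direction, but share differences that passed no test did. Leaving out 1 mouse at a time, PDL1 over Control ran between -0.179 and 0.771 points of kept cells. As a share of C1q macrophages, minP1 over Control ran between -10.9 and 2.99 points, PDL1 over Control between -6.2 and 11.7, minP1_PDL1 over Control between -16.6 and 1.72, and minP1_PDL1 over minP1 between -11.4 and 3.44. The gap in share of minP1_PDL1 below minP1 mice had an unadjusted exact permutation p of 0.0286 in 2 settings, the smallest p the numbers allow. These were an Arg1 limit of 2 CP10k (-3.02 points, permutation p of F over 4 groups 0.0364) and cells thinned to 10000 reads (-2.37 points). The p was not adjusted over the 5 pairs in these settings. Leaving out 1 mouse at a time, the gap ran between -2.67 and -1.54 points, and the p over 4 groups between 0.0444 and 0.321. With the replicate block it was -2.15 points (exact permutation p = 0.125).

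Genes called higher and lower over Arg1-low cells were 59 and 17 with DESeq2, 68 and 17 with no filter on low counts, 13 and 8 with thinned cells, 2 and 0 without members that had reads of other lineages (3 mice), 24 and 0 with at least 5 cells, and 0 and 0 with no replicate block. Each mouse left out gave 1 and 0. Over monocytes they were 871 and 698 with DESeq2, 544 and 502 with no filter, 189 higher at an Arg1 limit of 10 CP10k, and 58 and 70 without members that had reads of other lineages, where 3 of 341 and 3 of 453 called genes changed sign. Leaving out 1 mouse gave 230 to 315 and 343 to 435, and no replicate block 363 and 473.

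For minP1, PDL1 and minP1_PDL1 over Control, minP1_PDL1 over minP1 and over PDL1, and the interaction, DESeq2 called 8, 11, 35, 29, 36 and 4 genes, no filter 11, 23, 42, 38, 21 and 12, and the replicate block 1, 0, 0, 8, 3 and 0. Leaving out 1 mouse gave 0 to 2 for minP1 over Control, 0 to 1 for PDL1 over Control, 0 to 2 for minP1_PDL1 over minP1 and 0 for the other 3. The causes of these changes were not tested. The treatment comparison without members that had reads of other lineages was not run, since no minP1_PDL1 mouse kept 10 of them. The mice held 1 to 33 members each, which limits the precision of every per-mouse value.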
